A study of Mus musculus with 6 samples.

Results

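Scavenger and mannose receptors were followed in peritoneal macrophages (PMs) through 10 genes: Mrc1, Colec12, Cd68, Olr1, Msr1, Marco, Cd36, Scarb1, Stab1 and Cd163. They were taken by gene symbol from 32879 genes, after the counts of all transcript records of a gene were summed. PMs were sorted from the peritoneal cavity as CD11b+ F4/80+ cells, and 1 RNA library was made from each of 6 mice, 3 per group. Control animals were [NZW × BALB/c]F1 females aged 33, 33 and 30 weeks. The diseased-BWF1 mice were [NZB × NZW]F1 females aged 31, 31 and 34 weeks, a cross that develops lupus-like disease, and were defined by high anti-dsDNA antibody titers and severe proteinuria. The labels name no treatment and no engineered allele for either group. Both groups share the NZW parent and differ in the other parent as well as in disease, so strain and disease cannot be told apart. The question was whether these receptor transcripts differed in PMs of diseased-BWF1 mice, and whether the receptors moved together.

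Scavenger receptors bind modified lipoproteins, dying cells, microbial surfaces and other polyanionic or lipid cargo, and deliver much of it to lysosomes. The mannose receptor is a C-type lectin that takes up glycoproteins ending in mannose, fucose or N-acetylglucosamine, as well as collagen fragments. Resident PMs are phagocytes that clear apoptotic cells from the peritoneal cavity, and several of these receptors are widely used to mark alternatively activated or tissue-resident macrophages.

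Total counts ranged from 3629901 to 5003360 per mouse, of which 89.1% to 93.0% lay on genes. Levels are given as CPM, the usual library-scaled count, computed on genes after TMM scaling. A count of 3 corresponded to 0.652 to 0.888 CPM, a floor that covers counting error only. No pair of libraries within a group was a duplicate. The macrophage identity of the sort was checked with 10 marker genes, of which all passed the low-count filter and 0 were called by edgeR or DESeq2 (3 had an unadjusted edgeR p under 0.05). Adgre1, which encodes F4/80, lay between 2127 and 2265 CPM in control mice and between 1846 and 2040 CPM in diseased-BWF1 mice. Gata6, the transcription factor of large PMs, lay at 82.3 to 119.7 CPM and 68.6 to 112.5 CPM, respectively. Control mice were all above diseased-BWF1 mice for 3 of the 10 markers, Adgre1 among them, against 11.4% of all genes tested. The reverse held for 1, against 9.44%. Over all genes tested, 13.2% had an unadjusted p under 0.05. The 3 markers with a small unadjusted p did not overlap between groups. Of these, the resident-macrophage marker Timd4 was at 1206 to 1261 CPM in control mice and 605 to 1002 CPM in diseased-BWF1 mice (edgeR adjusted p = 0.334), Icam2 at 347 to 429 CPM and 232.5 to 316 CPM (edgeR adjusted p = 0.198), and Cd14, with the opposite direction, at 297 to 493 CPM and 577 to 1063 CPM (edgeR adjusted p = 0.263). The 8 B cell markers together reached at most 7.83 CPM in any library, the T cell markers at most 3.26 CPM, the neutrophil markers at most 9.25 CPM, the mast cell and eosinophil markers at most 2.93 CPM and the mesothelial markers at most 1.9 CPM.

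All 10 receptor genes passed the low-count filter. Of these, 1 was called with edgeR (quasi-likelihood test, Benjamini-Hochberg adjusted p under 0.05, at least a 1.5-fold difference). This was Mrc1, lower in diseased-BWF1 mice. Over all 10505 genes tested, 0.819% were called lower and 0.4% higher. With DESeq2, 3 receptor genes were called lower (Mrc1, Colec12 and Cd68) and 1 higher (Olr1), where 1.99% of 12141 genes were called lower and 1.05% higher. The same 4 genes were those whose 2 groups of mice did not overlap. The control mice were all above the diseased-BWF1 mice for 3 of the 10 receptor genes, against 11.4% of all genes tested. The opposite held for 1 receptor gene, against 9.44% of all genes tested. The remaining 6 receptor genes overlapped between groups. The median log2 fold change was -0.12 over the receptor genes and 0.01 over all genes tested, with 6 of 10 receptor genes and 49.1% of all genes tested below 0. Several of these genes were chosen with their differences already known, so the counts describe the genes and carry no test of the list.

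**Figure D1:**
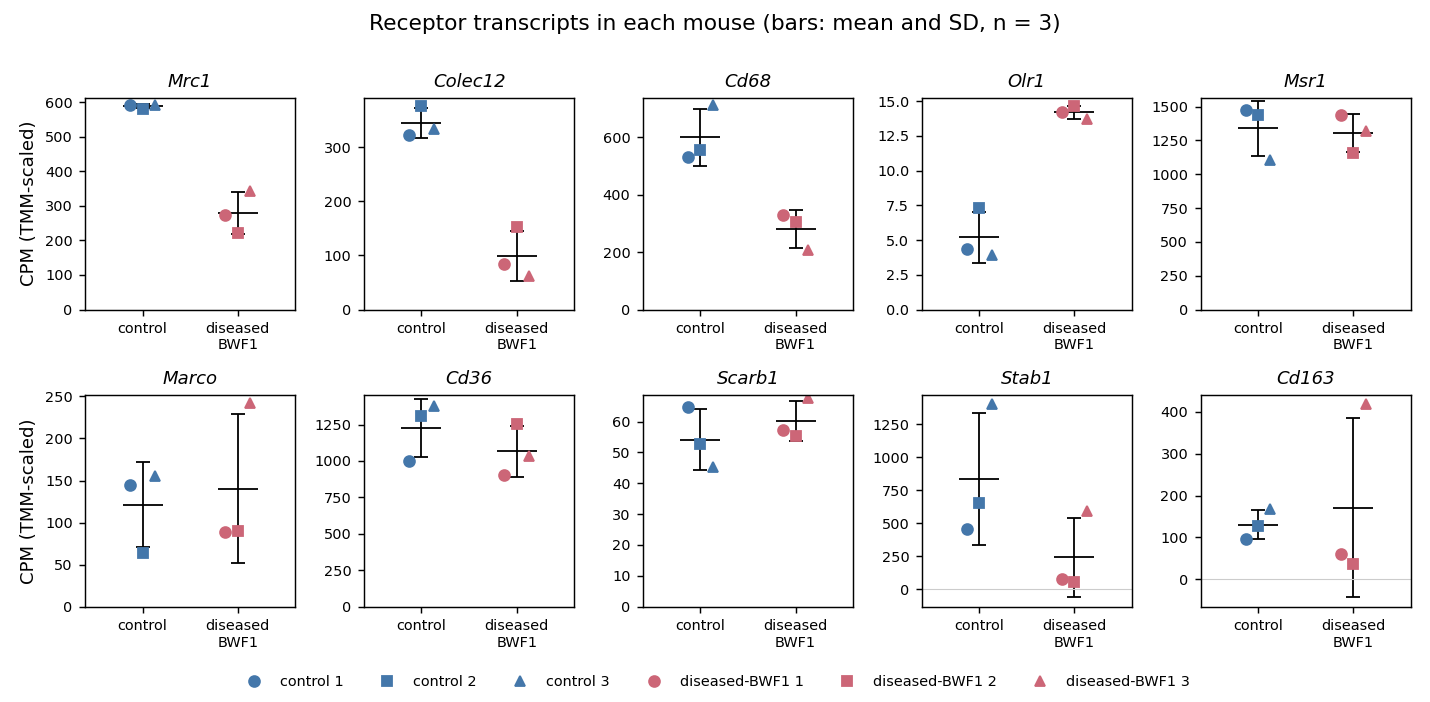
TMM-scaled CPM of the 10 receptor genes (y axes, linear) in each of the 3 control mice (blue) and 3 diseased-BWF1 mice (red), with the mean and SD of each group. The groups are apart for Mrc1, Colec12, Cd68 and Olr1, and overlap for the other 6 genes, with diseased-BWF1 mouse 3 far above its group for Stab1 and Cd163.

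Mrc1 encodes the mannose receptor CD206, which carries several C-type lectin domains and recycles between the cell surface and endosomes. Its transcript was at 591, 582 and 593 CPM in control mice 1, 2 and 3 and at 273, 221 and 343 CPM in diseased-BWF1 mice 1, 2 and 3. Every diseased-BWF1 mouse was below every control mouse, and the control mice differed from each other by at most 1.02-fold, a range of 0.03 on the log2 scale that 99.6% of all genes tested equalled or exceeded. The mean fell from 588.8 ± 5.87 to 278.9 ± 60.8 CPM (SD, n = 3 in each group), a log2 fold change of -1.08 (SE 0.18, 95% interval -1.5 to -0.66, edgeR adjusted p = 0.044). The exact two-sided permutation test gave p = 0.1, the smallest it can give for 3 mice against 3. The call held without diseased-BWF1 mouse 3 (adjusted p = 0.0454), and was lost without any other single mouse, with adjusted p between 0.0905 without control mouse 3 and 0.167 without diseased-BWF1 mouse 1 (0.121 without control mouse 1, 0.141 without control mouse 2 and 0.0998 without diseased-BWF1 mouse 2), while the log2 fold change stayed between -1.25 and -0.93. It was also lost with curated records alone (adjusted p = 0.111), with library totals in place of TMM (0.0534) and with age as a covariate (0.0543). The counts of Mrc1 itself are the same with curated records, since its 1 record is curated. In that setting 16 of 9312 genes were called, against 128 of 10505 with all records. In bulk RNA, fewer cells carrying a transcript and less of the transcript per cell cannot be told apart, for this and the other receptors.

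Mrc1 lies on the forward strand of chromosome 2 (GRCm38, 14229392 to 14332057), and its 1 RefSeq record, NM_008625.2, matched a transcript of 30 exons. A microRNA gene, Mir511, lies within Mrc1 on the same strand. Its record had 0 counts in all 6 mice, in libraries made from polyadenylated RNA. The mature miR-511-3p (RefSeq, GRCm38.p6, chr2:14261051-14261072, forward strand) is shown because it shares the Mrc1 locus, with the seed, bases 2 to 8, in capitals.
mmu-miR-511-3p: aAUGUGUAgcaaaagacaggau

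The 250 bases before the start of Mrc1, and those of Cd68 and Olr1 below, are shown because the groups did not overlap for these genes. They come from a RefSeq table of promoters (GRCm38.p6), which held 7 of the 10 receptor genes. The start is that of the RefSeq table and can differ from the gene bounds of the GENCODE annotation given here, so that the Mrc1 window reaches past the annotated gene start and the Cd68 window ends short of it. Colec12, Msr1 and Scarb1 had no entry. Sequences are written in the direction of the gene, and capitals mark letters that match a motif on either strand. The motifs searched were GAGGAA (core of PU.1 sites, the macrophage lineage factor), TGANTCA (AP-1), CACGTG (E-box read by TFE3 and TFEB), the STAT6 motif (TTC and GAA with 4 bases between) and TTGCNNAA (C/EBP). The Mrc1 window (chr2:14229164-14229413, forward strand) held the PU.1 core 3 times, on the reverse strand, with first bases at -180, -167 and -35 from the start.
Mrc1: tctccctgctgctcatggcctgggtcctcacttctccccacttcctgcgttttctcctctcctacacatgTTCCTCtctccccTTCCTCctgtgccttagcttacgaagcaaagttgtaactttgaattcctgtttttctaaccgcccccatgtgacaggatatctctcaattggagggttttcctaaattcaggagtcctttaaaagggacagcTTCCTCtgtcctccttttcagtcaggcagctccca
The PU.1 core was found in 5 of the 7 receptor windows and in 23.3% of 32851 windows of all genes. AP-1 letters were found in 2 of the 7 (6.7% of all windows) and C/EBP letters in 1 of the 7 (9.6% of all). The E-box and STAT6 letters were in 0 of the 7 windows, against 6.0% and 5.9% of all. No searched motifs overlapped in the 3 windows printed. A match describes letters in this window and does not show that a factor binds there.

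Cd68 encodes macrosialin, a heavily glycosylated protein of late endosomes and lysosomes that binds oxidized lipoprotein at the small fraction on the cell surface. Its transcript was at 531, 555 and 713 CPM in control mice and at 330, 305 and 206 CPM in diseased-BWF1 mice. The groups did not overlap, and the highest control mouse and the lowest diseased-BWF1 mouse both carried the number 3. The means were 599.5 ± 98.8 and 280.5 ± 65.3 CPM, a log2 fold change of -1.10 (SE 0.22, 95% interval -1.6 to -0.59). It missed the threshold in edgeR (adjusted p = 0.0718) and was called by DESeq2 (adjusted p = 0.000127). The exact permutation test gave p = 0.1. Of the 14 alternatives tried, 3 called Cd68: DESeq2, edgeR with age as a covariate (adjusted p = 0.0306) and edgeR with no low-count filter (0.0184). With 1 mouse left out Cd68 was never called (edgeR adjusted p 0.135 to 0.178), with log2 fold changes between -1.23 and -0.92. It was also not called with curated records (0.152) or the replicate number as a block (0.162). Cd68 lies on the reverse strand of chromosome 11 (69664213 to 69666153). Its window (chr11:69666171-69666420, reverse strand) held the AP-1 letters at -149 and -24, the PU.1 core at -225 and the C/EBP letters at -43.
Cd68: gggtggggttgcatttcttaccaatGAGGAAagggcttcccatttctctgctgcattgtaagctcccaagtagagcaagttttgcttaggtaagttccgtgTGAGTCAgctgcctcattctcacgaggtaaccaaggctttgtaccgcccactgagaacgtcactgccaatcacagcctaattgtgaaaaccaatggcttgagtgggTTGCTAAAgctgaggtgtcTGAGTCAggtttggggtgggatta

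Colec12 encodes a scavenger receptor with a collagen-like stalk and a C-type lectin domain, which binds sugars of the Lewis type and oxidized lipoprotein. It was at 324, 376 and 334 CPM in control mice and at 84.0, 152 and 61.2 CPM in diseased-BWF1 mice. All diseased-BWF1 mice were below all control mice, with a 2.48-fold range among them against 1.16-fold among control mice. The log2 fold change was -1.80 (SE 0.32, 95% interval -2.54 to -1.06), with means of 344.6 ± 27.6 and 98.97 ± 47.1 CPM. The edgeR adjusted p was 0.0516, just outside the threshold, and the DESeq2 adjusted p was 1.95e-06. Without diseased-BWF1 mouse 2, the mouse with the most Colec12 in its group, the log2 fold change was -2.24 and the gene was called (edgeR adjusted p = 0.0322). Without any other single mouse it was not called, with adjusted p between 0.104 and 0.182 and log2 fold changes between -1.85 and -1.55. Of its 2 records, the curated one held at least 98.8% of the counts in every mouse.

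Olr1 encodes LOX-1, a C-type lectin-like receptor for oxidized lipoprotein that is inducible in endothelium and macrophages. It had the fewest counts of the 10 receptors, with 20, 27 and 13 counts in control mice and 57, 55 and 52 counts in diseased-BWF1 mice. These correspond to 4.35, 7.33 and 3.95 CPM and to 14.2, 14.7 and 13.7 CPM. The diseased-BWF1 mice were all above the control mice and close to each other, within 1.07-fold. The log2 fold change was 1.44 (SE 0.28, 95% interval 0.8 to 2.09), with edgeR adjusted p = 0.0651 and DESeq2 adjusted p = 0.0129. It was therefore not called by edgeR, and the exact permutation test gave p = 0.1. Of its 6 records, 5 were detected, and the curated records held 55.6% to 100% of its counts. Olr1 lies on the reverse strand of chromosome 6 (129485244 to 129507165). Its window (chr6:129507166-129507415, reverse strand) held the PU.1 core at -76 and the AP-1 letters at -60.
Olr1: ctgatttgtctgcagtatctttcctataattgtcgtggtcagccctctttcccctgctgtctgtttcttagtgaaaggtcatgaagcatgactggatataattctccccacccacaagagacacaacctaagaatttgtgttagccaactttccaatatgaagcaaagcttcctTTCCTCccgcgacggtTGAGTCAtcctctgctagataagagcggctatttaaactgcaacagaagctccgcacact

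Some markers of other cells differed between the groups as well. The summed level of 7 monocyte markers was 15.8 to 29.6 CPM in control mice and 59.1 to 78.1 CPM in diseased-BWF1 mice. Of these, 3 were tested and 0 were called by edgeR (2 at an unadjusted p under 0.05). DESeq2 called Ace, angiotensin-converting enzyme, higher (log2 fold change 1.94, edgeR adjusted p = 0.103, DESeq2 adjusted p = 0.00235). Most of the sum was Irf4 and Ace in every mouse. Irf4 was at 7.291 to 16.55 CPM in control and 15.74 to 52.74 CPM in diseased-BWF1 mice, and overlapped between groups. Ace was at 7.291 to 10.04 CPM in control and 16.75 to 53.87 CPM in diseased-BWF1 mice. Plac8, Chil3 and Treml4 each reached at most 6.134 CPM in any mouse. Ccr2, a defining monocyte marker, was at 0.608 to 2.83 CPM in control and 1.6 to 8.17 CPM in diseased-BWF1 mice, and Ly6c2 had 1 count in 1 control mouse and 0 counts in the other 5 mice. The 8 dendritic cell markers summed to 44.8 to 85.1 CPM in control and 9.49 to 18.9 CPM in diseased-BWF1 mice, most of it Cd209a in control mice, which was called lower (log2 fold change -4.34, edgeR adjusted p = 0.0117). Without Cd209a the other 7 summed to 9.57, 10.04 and 10.9 CPM in control mice and to 14.0, 14.1 and 8.17 CPM in diseased-BWF1 mice, so that they were not lower together. The part of either cell type in the receptor values was not tested.

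**Figure D2:**
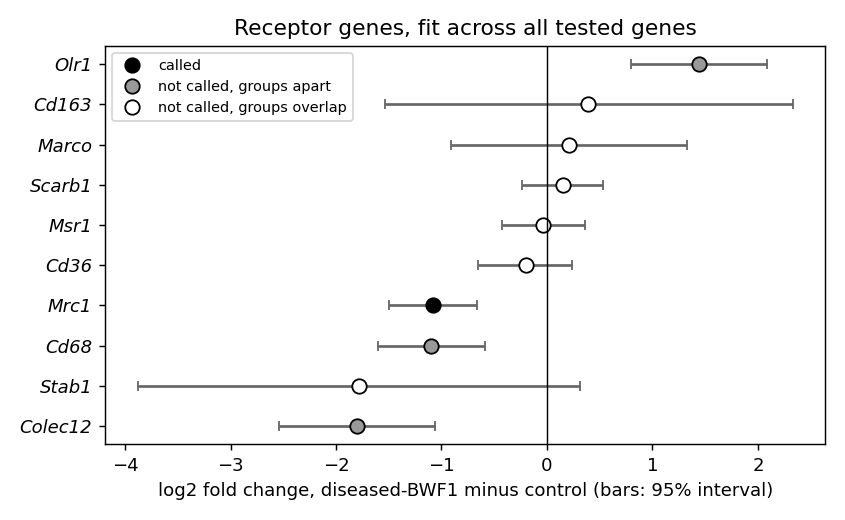
Log2 fold change of each receptor gene, diseased-BWF1 minus control (x axis), with the 95% interval from the edgeR fit. Filled black is called (Mrc1, -1.08), grey is not called with groups apart (Colec12, Cd68, Olr1) and white is not called with groups that overlap. The intervals of Stab1 and Cd163 are the widest.

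The class A receptors Msr1 and Marco were not called by edgeR or DESeq2. Msr1 encodes the macrophage scavenger receptor, a collagen-like trimer for acetylated lipoprotein and bacterial surfaces. It was at 1478, 1436 and 1104 CPM in control mice and at 1440, 1159 and 1321 CPM in diseased-BWF1 mice, so that both groups covered nearly the same range. Its log2 fold change was -0.04 (SE 0.17, edgeR adjusted p = 0.954), with a 95% interval of -0.43 to 0.36. Marco, a collagen-like receptor for bacteria and particles that is typical of resident macrophages, was at 144, 64.1 and 156 CPM in control mice and at 88.5, 90.1 and 242 CPM in diseased-BWF1 mice. For Marco the log2 fold change was 0.21 (SE 0.48, 95% interval -0.91 to 1.33, edgeR adjusted p = 0.895), and without diseased-BWF1 mouse 3, which had the most Marco, it was -0.44. The 95% interval of Msr1 lay above that of Mrc1 (-1.5 to -0.66), and that of Marco overlapped it. Mrc1 and Marco were not tested against each other.

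Of the class B receptors, Cd36 takes up oxidized lipoprotein and long-chain fatty acids and Scarb1 takes up cholesterol ester from high-density lipoprotein. Cd36 was at 1000, 1307 and 1375 CPM in control mice and at 906, 1256 and 1036 CPM in diseased-BWF1 mice. The groups overlapped, and the log2 fold change was -0.20 (SE 0.19, 95% interval -0.65 to 0.24, edgeR adjusted p = 0.706). Scarb1 was at 64.6, 52.7 and 45.3 CPM in control mice and at 57.2, 55.5 and 67.5 CPM in diseased-BWF1 mice. All 3 diseased-BWF1 values were above the control mean of 54.2 CPM but 2 of them were below the highest control value, and the log2 fold change was 0.15 (SE 0.17, 95% interval -0.24 to 0.53, edgeR adjusted p = 0.763).

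In each of the 6 receptors that overlapped between groups, the log2 range among diseased-BWF1 mice was wider than the difference between the groups. Among the 10 receptors this range was widest for Stab1 and Cd163. Stab1 encodes stabilin-1, a multidomain receptor of macrophages and sinusoidal endothelium for acetylated lipoprotein, SPARC and phosphatidylserine. It was at 455, 650 and 1399 CPM in control mice and at 78.5, 58.7 and 589.5 CPM in diseased-BWF1 mice. Both mice numbered 3 were highest in their groups, and diseased-BWF1 mouse 3 lay above control mouse 1. The log2 fold change was -1.78, with SE 0.90 and a 95% interval from -3.88 to 0.31 (edgeR adjusted p = 0.465). Without diseased-BWF1 mouse 3 the remaining 2 mice of the group were below every control mouse, the log2 fold change was -3.6 and the adjusted p was 0.0726. The highest and lowest diseased-BWF1 mice differed 10.1-fold, a log2 range of 3.32 that 1.22% of all genes tested equalled or exceeded.

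Cd163, the receptor for haemoglobin bound to haptoglobin, was at 97.4, 127 and 168 CPM in control mice and at 60.2, 36.0 and 418 CPM in diseased-BWF1 mice. Diseased-BWF1 mice 1 and 2 were below every control mouse and diseased-BWF1 mouse 3 was above every one. The range within the diseased-BWF1 group was 11.6-fold, or 3.52 on the log2 scale, which 0.9995% of all genes tested equalled or exceeded. The log2 fold change of 0.39 (SE 0.83, 95% interval -1.54 to 2.33, edgeR adjusted p = 0.881) turned to -1.44 without diseased-BWF1 mouse 3. The medians of the within-group log2 range over all genes tested were 0.46 (control) and 0.40 (diseased-BWF1). Marco also had a wide range, 1.28 among control and 1.45 among diseased-BWF1 mice.

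Lyve1, a hyaluronan receptor of lymphatic endothelium and of some tissue macrophages, was, like Stab1, highest in the mouse numbered 3 of each group and lowest in diseased-BWF1 mice 1 and 2. It was at 124, 164 and 303 CPM in control mice and at 29.3, 51.2 and 172.7 CPM in diseased-BWF1 mice (log2 fold change -1.22, edgeR adjusted p = 0.481). It made up nearly all of the summed level of the 8 endothelial markers, which was 125.5, 164.7 and 305.6 CPM and 29.8, 51.7 and 172.7 CPM. The endothelial markers Cdh5, Robo4 and Esam were at 0 counts in all 6 mice. Stab1 lies on the reverse strand of chromosome 14 (31139013 to 31168641), with 69 exons, and overlaps Nt5dc2 on the opposite strand. Nt5dc2 had at most 13.1 CPM in any mouse. The library kit kept strand, but the strand setting used for counting was not given in the sources used here.

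**Figure D3:**
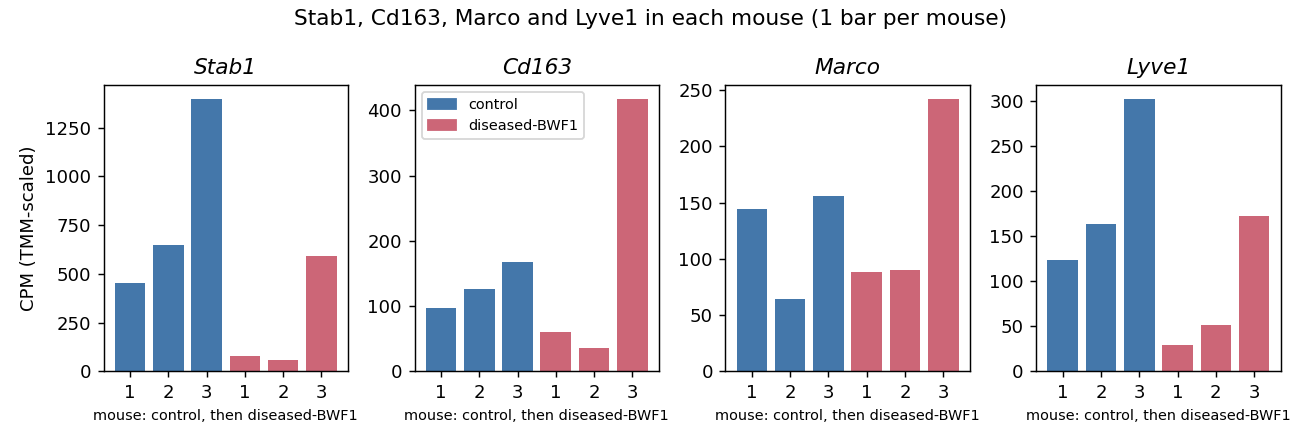
TMM-scaled CPM (y axes, linear from 0) of Stab1, Cd163, Marco and Lyve1, with 1 bar per mouse in the order control 1 to 3 (blue) and diseased-BWF1 1 to 3 (red). Diseased-BWF1 mouse 3 stands above the other diseased-BWF1 mice in all 4 panels, with 589.5 CPM of Stab1 and 418 CPM of Cd163.

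Receptors were next compared with each other within each mouse, on the log2 scale of the ratio of their CPM, in 6 pairs with Benjamini-Hochberg adjustment over the 6. The ratio of Mrc1 to Msr1 was -1.32, -1.3 and -0.90 in control mice and -2.4, -2.39 and -1.95 in diseased-BWF1 mice. The groups were apart by -1.07 (exact permutation p = 0.1, adjusted 0.2). The ratio of Colec12 to Marco was 1.16, 2.55 and 1.1 in control mice and -0.08, 0.75 and -1.99 in diseased-BWF1 mice, also apart, with a difference of -2.04 (exact permutation p = 0.1, adjusted 0.2). The ratio of Olr1 to Msr1 was -8.41, -7.61 and -8.13 in control mice and -6.66, -6.3 and -6.59 in diseased-BWF1 mice, apart in the other direction by 1.53 (exact permutation p = 0.1, adjusted 0.2). With 3 mice against 3 no pair could reach a lower p.

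Mrc1 and Cd68 had nearly the same mean fold change, and the log2 ratio of Cd68 to Mrc1 differed by -0.01 between the groups (exact permutation p = 1.0). Within the diseased-BWF1 group this ratio was 0.27, 0.46 and -0.73, against -0.16, -0.07 and 0.27 in control mice, so that diseased-BWF1 mouse 3 had the most Mrc1 and the least Cd68 of its group. The ratio of Mrc1 to Cd163 was 2.6, 2.2 and 1.82 in control mice and 2.18, 2.62 and -0.29 in diseased-BWF1 mice (exact permutation p = 0.8), the last value resting on the high Cd163 of that mouse. The ratio of Cd36 to Scarb1 differed by -0.36 (exact permutation p = 0.3). Together the 10 receptors took 0.468%, 0.499% and 0.574% of the counts on genes in control mice and 0.342%, 0.333% and 0.435% in diseased-BWF1 mice, with every diseased-BWF1 mouse below every control mouse. The receptors did not share this direction, with 6 means lower and 4 higher in diseased-BWF1 mice. The largest fall in CPM was that of Stab1 (mean 835 to 242 CPM). Several genes were chosen with their differences known, so the summed share carries no test of the list.

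Levels of different receptors were compared per length, as CPM per kb of transcript. The length was that of the annotated transcript that matched the record with the most counts, a choice made after the values were seen. In control mice the order was Cd68 (487.4 CPM per kb), Cd36 (407.0), Msr1 (368.3), Mrc1 (109.6), Stab1 (104.4), Marco (63.1), Colec12 (42.9), Cd163 (29.7), Scarb1 (21.5) and Olr1 (1.46). Of the 9 neighbouring pairs, Msr1 and Mrc1 (3.36-fold), Colec12 and Cd163 (1.45-fold) and Scarb1 and Olr1 (14.7-fold) did not overlap across mice, and the other 6 pairs overlapped. In diseased-BWF1 mice the order was Msr1 (359.4 CPM per kb), Cd36 (353.5), Cd68 (228.1), Marco (72.9), Mrc1 (51.9), Cd163 (38.9), Stab1 (30.3), Scarb1 (23.8), Colec12 (12.3) and Olr1 (3.98). Here Cd36 and Cd68 (1.55-fold), Cd68 and Marco (3.13-fold), Scarb1 and Colec12 (1.93-fold) and Colec12 and Olr1 (3.1-fold) did not overlap. With the median length over the annotated coding transcripts, which was the planned length, Stab1 came first in control mice (1413 CPM per kb), because short fragments set its median at 591 bases against 7999 bases for the matched transcript. For Olr1 these lengths were 468 and 3572 bases. With the planned length, Msr1 (940.5 CPM per kb) lay above Cd68 (535.7) in control mice, without overlap, the reverse of the order given above. With the planned length the order in diseased-BWF1 mice was Msr1, Stab1, Cd36, Cd68, Marco, Mrc1, Cd163, Scarb1, Olr1 (30.4 CPM per kb) and Colec12 (12.3), the last pair without overlap. The places of several receptors, Stab1, Olr1, Msr1 and Cd68 among them, thus depended on the length used.

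**Figure D4:**
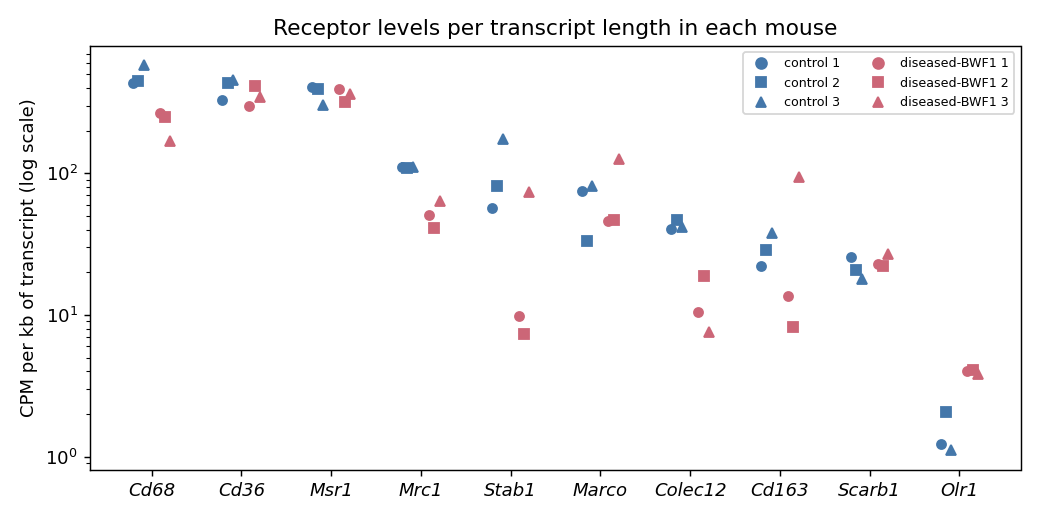
CPM per kb of transcript (y axis, log scale) of each receptor in each mouse, control in blue and diseased-BWF1 in red, ordered by the control mean. With this length, that of the transcript matched to the record with the most counts, Cd68, Cd36 and Msr1 came first in both groups and Olr1 last, while with the median length Stab1 ranked first in control mice and Colec12 last in diseased-BWF1 mice.

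The RefSeq records behind a gene were also compared, at loci taken from the annotation (GRCm38). Msr1 (chromosome 8, 39581685 to 39642673), Marco (chromosome 1, 120474538 to 120505024), Cd36 (chromosome 5, 17781690 to 17888801) and Scarb1 (chromosome 5, 125277087 to 125341094) lie on the reverse strand. Colec12 (chromosome 18, 9707595 to 9882644) and Cd163 (chromosome 6, 124304656 to 124330527) lie on the forward strand, and 7 small genes or pseudogenes are annotated within Colec12. Msr1, Cd36, Scarb1 and Cd163 had 4, 11, 4 and 4 records. In Msr1 the record NM_031195.2 held 63.7% to 72.3% of the counts in all mice, and in Scarb1 the record NM_016741.2 held 76.3% to 84.5%. Cd36 was split over 6 detected records, and the predicted record XM_006535620.3 had 0, 105 and 1421 counts in control mice and 1, 0 and 1 counts in diseased-BWF1 mice. The curated records of Cd36 therefore held 30.2% of its counts in control mouse 3 and up to 57.4% in other mice, and its log2 fold change was 0.15 with curated records alone. In Cd163 the record NM_001170395.1 had 37, 0 and 195 counts in control mice and 0, 0 and 688 counts in diseased-BWF1 mice, and curated records held 21.6% to 94.2% of the gene. The split depends on how reads shared by records were assigned, and was not tested.

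**Figure D5:**
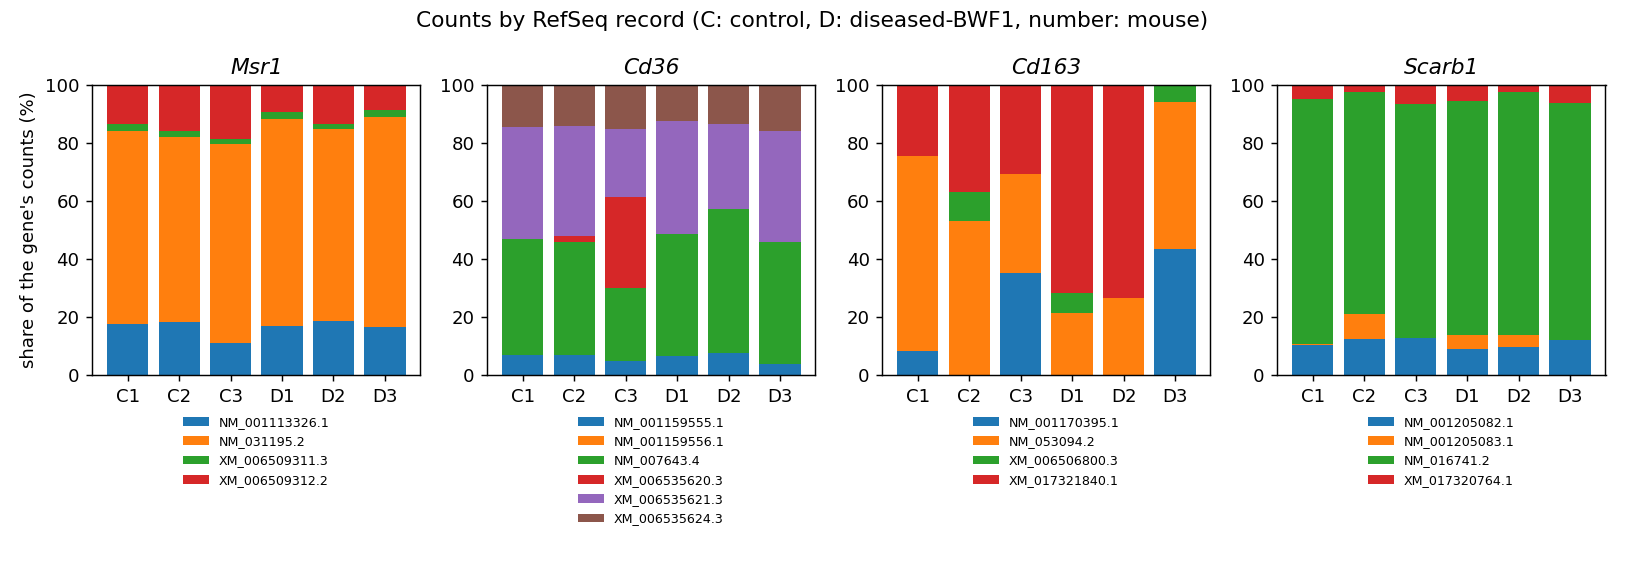
Share of the counts of Msr1, Cd36, Cd163 and Scarb1 on each RefSeq record (y axis, percent) in each mouse (C, control; D, diseased-BWF1). The shares of Msr1 and Scarb1 were alike across mice, and those of Cd163 ranged from 21.6% to 94.2% for the curated (NM) records.

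Genes whose profile over the 6 mice was most like that of a receptor were found as the smallest root mean square difference of log2 CPM, after centring each gene. For Mrc1 they were Slc36a1 (0.108), Gnpda1 (0.125) and Gm46218 (0.129). For Cd68 they were Npl (0.091), P2ry14 (0.134) and 1700047M11Rik (0.135), and for Colec12 Prickle1 (0.156), Gspt2 (0.235) and Car13 (0.258). Gnpda1, a glucosamine-6-phosphate deaminase, was at 189.9, 210.9 and 235.4 CPM in control mice and at 97.5, 68.5 and 109.7 CPM in diseased-BWF1 mice, and was itself called lower (log2 fold change -1.21, edgeR adjusted p = 0.0411). For Olr1 they were Vis1 (0.214), Zfp503 (0.23) and Arl15 (0.244), and for Marco Sema6b (0.182), Epha2 (0.198) and Il4ra (0.222). Il4ra, a chain of the interleukin-4 receptor, was at 79.0, 39.1 and 72.0 CPM in control mice and at 62.0, 62.9 and 124 CPM in diseased-BWF1 mice. For Stab1 the closest was Gas6 (0.292), the bridging ligand of the TAM receptors, at 5.002, 5.70 and 8.20 CPM in control mice and at 0.25, 0 and 5.54 CPM in diseased-BWF1 mice, followed by Ankrd50 (0.431) and Slc25a40 (0.579). In diseased-BWF1 mice 1 and 2, Gas6 and Slc25a40 lay below the level of 3 counts (0.769 and 0.797 CPM). Their log2 CPM there rested largely on the prior count of 2 added before taking logs. For Cd163 they were P2ry6 (0.486), Cd55 (0.533) and Mmp9 (0.543). Msr1, Scarb1 and Cd36, which varied little, were closest to Rgp1, Ercc3 and Slc38a2, respectively. Among the receptors themselves, Mrc1 and Cd68 were each other's closest (0.391), as were Msr1 and Scarb1 (0.161). The nearest receptor was Cd68 for Colec12 (0.513), Scarb1 for Olr1 (0.697) and Marco (0.584), Msr1 for Cd36 (0.352), Cd163 for Stab1 (1.046) and Marco for Cd163 (0.805). The distance of a receptor to a flat profile was 0.222 for Cd36, so that Msr1 was farther from it than no change. It was 0.162 for Msr1, 0.188 for Scarb1, 0.749 for Olr1 and 0.633 for Marco, little above the distance to their nearest receptor. For Mrc1, Cd68, Colec12, Stab1 and Cd163 it was 0.579, 0.608, 1.024, 1.664 and 1.113. The 6 mice share the contrast between groups, so a small difference here describes the values only.

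Genes that work with the receptors were taken as 6 lists, with 131 genes in the table and 102 tested. Of these, 2 were called higher and 2 lower, and the median log2 fold change was -0.07, against 0.4% higher, 0.819% lower and a median of 0.01 over all genes tested. Of 28 other scavenger and lectin receptors in the table, 11 were tested and 0 were called by edgeR (2 at an unadjusted p under 0.05), and DESeq2 called 1, Scarb2, the lysosomal receptor of glucocerebrosidase (log2 fold change -0.78, edgeR adjusted p = 0.183, DESeq2 adjusted p = 0.0364). The smallest p values after it belonged to Cd14, the lipopolysaccharide co-receptor (log2 fold change 0.88, edgeR adjusted p = 0.263), Lrp8 (-0.76) and Cxcl16 (0.65). Of these receptors, Mrc2, Scara3, Scara5, Asgr1, Lrp2 and Vldlr had 0 counts in all mice, and Stab2, the paralogue of Stab1, had at most 1 count in any mouse.

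Of 18 tested partners and signalling genes, 0 were called by edgeR (3 at an unadjusted p under 0.05). DESeq2 called Cd9, a tetraspanin that associates with Cd36, higher (adjusted p = 2.59e-05). It was at 120.5, 131.6 and 124.3 CPM in control mice and at 329, 454.5 and 215 CPM in diseased-BWF1 mice (log2 fold change 1.41, edgeR adjusted p = 0.0587). The log2 fold changes of Vav2, Tlr4 and Calr, next by p, were 0.42, -0.38 and -0.31. None of these 3 was called by either tool.

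Of 14 tested ligands and opsonins, 1 was called higher and 1 lower by edgeR, and 8 had an unadjusted p under 0.05 (13.2% of all genes tested). Control mice were all above diseased-BWF1 mice for 4 of the 14 and all below for 5, against 11.4% and 9.44% of all genes tested. Hp, haptoglobin, which carries haemoglobin to Cd163, was at 49.6, 42.3 and 74.4 CPM in control mice and at 192, 194.7 and 266 CPM in diseased-BWF1 mice (log2 fold change 1.98, edgeR adjusted p = 0.0192). Lgals1, the galactose-binding lectin galectin-1, was at 98.95, 138.9 and 144.9 CPM and at 37.0, 22.1 and 19.0 CPM (log2 fold change -2.29, edgeR adjusted p = 0.0192). Neither gene overlapped between groups. With 1 mouse left out, the call of Hp held only without control mouse 3 (edgeR adjusted p between 0.0182 and 0.0816 over the 6 mice), and that of Lgals1 only without control mouse 1 or diseased-BWF1 mouse 1 (0.0268 to 0.0777). The complement chains C1qa (log2 fold change -0.88, edgeR adjusted p = 0.0857) and C1qc (-0.79, 0.0937) were called lower by DESeq2 and not by edgeR. The Cd36 ligand Thbs1 (2.86, 0.103) and Mfge8 (0.9, 0.1315) were called higher by DESeq2 and not by edgeR.

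Of 26 tested genes of cargo handling in lysosomes, haem breakdown and sterol storage, 0 were called by edgeR (10 at an unadjusted p under 0.05) and 5 were lower with DESeq2. The control mice were all above the diseased-BWF1 mice for 10 of the 26, the reverse held for 0, and the median log2 fold change was -0.31. Over all genes tested the shares were 11.4% and 9.44%, 13.2% had an unadjusted p under 0.05, and the median was 0.01. Those with the smallest p were Blvra (log2 fold change -0.76, edgeR adjusted p = 0.0848) and Blvrb (-0.59, 0.0937), the biliverdin reductases of haem breakdown, the lysosomal tetraspanin Cd63 (-1.54, 0.0864) and the cholesterol esterifying enzyme Soat1 (-0.77, 0.102). Hmox1, the haem oxygenase that acts on haem delivered by Cd163, was at 197, 193 and 277 CPM in control mice and at 172.5, 106 and 242 CPM in diseased-BWF1 mice, and the groups overlapped.

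Of 24 tested regulators, 1 was called, Tfe3, a transcription factor of lysosomal genes. It fell from 216.6, 185.4 and 200.2 CPM in control mice to 112, 114 and 94.9 CPM in diseased-BWF1 mice (log2 fold change -0.91, edgeR adjusted p = 0.0304), a call that was lost without any 1 of the 6 mice (0.064 to 0.116). Maf, Klf4 and Irf4 came next, with log2 fold changes of -0.94, 0.65 and 1.32, and Maf was called by DESeq2 (adjusted p = 0.045). Pparg, an inducer of Cd36 in many macrophages, had at most 16 counts in any mouse and was not tested. Of 9 tested genes of receptor shedding, 1 was called, the membrane metalloproteinase Mmp14, at 1.52, 3.26 and 1.52 CPM in control mice and at 20.8, 13.9 and 23.2 CPM in diseased-BWF1 mice (log2 fold change 3.19, edgeR adjusted p = 0.0168). Its call held without control mouse 2 or diseased-BWF1 mouse 2 and was lost without any other mouse (edgeR adjusted p 0.0352 to 0.0708). The log2 fold changes of Adam8, Timp2 and Adam10 were -1.19, -0.34 and 0.17, and none of the 3 was called by either tool.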

How the data were processed

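RNA-seq was analysed from sorted PMs of 3 control and 3 diseased-BWF1 mice. The authors deposited, for each mouse, estimated counts per RefSeq transcript record as whole numbers without normalization. Salmon 0.8.0, DESeq2 and the build GRCm38.p6 are named in the submitters' processing notes, and the strand setting is not given in the sources used here. Of 107193 records, 45754 matched a RefSeq gene table by accession and version and 40712 by accession alone. The 20727 unmatched records were left out. Counts were summed per gene symbol, which left 3376669 to 4604336 counts on genes per library, a depth that limits the precision of low genes such as Olr1.

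Groups came from the labels. Genes were filtered with filterByExpr, scaled by TMM and compared with edgeR 4.0.16 (R 4.3.3, glmQLFit and glmQLFTest, Benjamini-Hochberg over 10505 genes), and with DESeq2 1.42.0 as an alternative. Called genes had an adjusted p under 0.05 and differed at least 1.5-fold. P-values cover the spread between 3 mice per group. Within-mouse ratios were the log2 ratio of the summed counts of 2 genes in a mouse, without a prior count, compared by an exact two-sided permutation test. The same test for single genes used log2 CPM (prior count 2). Positions and lengths come from GENCODE vM21 on GRCm38. The code was tested on simulated data. Other normalizations, filters, the replicate number as a block, age, curated records and each mouse left out were tried. The length of the matched transcript was chosen after seeing the data.

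The members and lists were chosen with earlier results of these data known. The text names the 10 receptors, every called gene and the 4 smallest p of each related list, the 3 closest profiles of each receptor, marker genes, and genes overlapping a receptor. Ace, Hmox1, Mfge8, Pparg and Thbs1 were added after their values were seen. Of the 8 monocyte markers, 1 is not reported here and was left out of their sum.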

Additional observations from a re-analysis of the deposited data

How the results depend on the processing

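Of the 10 receptor genes, Mrc1, Colec12, Cd68, Olr1, Scarb1 and Stab1 kept their direction under all 14 alternatives. The number of receptor genes called, 1 in the analysis above, was 4 with DESeq2 and 4 with no low-count filter (Mrc1, Colec12, Cd68 and Olr1), 2 with at least 10 counts in every library (Mrc1 and Colec12), 0 with library totals, with the replicate block and with curated records, and 0 to 1 with a mouse left out. Over all genes, 128 were called. The number was 370 with DESeq2, 259 with no filter, 84 with at least 10 counts, 16 with curated records and 21 to 51 with a mouse left out. Of the related genes, 4 were called, against 16 with DESeq2, 7 with no filter, 0 with curated records and 1 to 1 with a mouse left out. The causes were not tested, although leaving out a mouse also leaves fewer samples.

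With the replicate block the counts were 38 over all genes, 1 of the related genes and 0 of the receptor genes, where Mrc1 was no longer called (log2 fold change -1.1, edgeR adjusted p = 0.0826). Same-numbered mice are different animals and the labels do not pair them, so the numbers were not taken as pairs. The deviations of same-numbered mice from their group means correlated by 0.117, 0.006 and 0.157, against -0.144 to 0.057 for mice of unlike number. Each mouse correlated best with its own number except the mice numbered 2. Whether same-numbered mice shared a batch was not tested.

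Small log2 fold changes turned direction. With a mouse left out they ranged from -0.16 to 0.05 for Msr1, -0.44 to 0.45 for Marco and -1.44 to 0.88 for Cd163, and the log2 ratios from -1.26 to 0.19 for Mrc1 to Cd163 and -0.24 to 0.36 for Cd68 to Mrc1. Msr1 was 0.01 with library totals, 0.06 with curated records, 0.04 and 0.02 without control mice 1 and 2, and 0.05 without diseased-BWF1 mouse 2. Marco was -0.09 without control mouse 2 and -0.44 without diseased-BWF1 mouse 3. Cd36 was 0.15 with curated records. Cd163 was -0.38 with the replicate block, -0.33 with age and -1.44 without diseased-BWF1 mouse 3. The ratio of Mrc1 to Cd163 was 0.09 with curated records and 0.19 without diseased-BWF1 mouse 3, and that of Cd68 to Mrc1 was 0.11 without control mouse 3 and 0.36 without diseased-BWF1 mouse 3. With age as a covariate the 1 receptor gene called was Cd68. The causes were not tested.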
